A study of Mus musculus with 6 samples.

Results

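The genes described here are 35 regulators of histone acetylation that act outside the ING5 complexes: acetyltransferases and their coactivators, deacetylases, sirtuins, subunits of the Sin3 corepressor and BET proteins. They were picked by symbol from a fixed list and matched through their Ensembl gene IDs, and all 35 were found among the 37991 gene IDs of the count files. Poly(A) RNA was sequenced in 6 livers taken from FVB mice at 84 days of age, 3 of genotype Ing5 +/+ (WT) and 3 of genotype Ing5 MommeD48/+ (Het), and no treatment is given. The comparison is between these genotypes. The nature of the MommeD48 allele is not given in the sources used here, nor whether each numbered liver is from its own mouse, so the p-values cover the spread among these 6 samples, part of which may be technical.

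Acetyl groups are placed on histone lysines by acetyltransferases (writers), taken off by zinc-dependent deacetylases and NAD-dependent sirtuins (erasers), and bound by bromodomain proteins (readers). ING5 is a PHD-finger subunit of other acetyltransferase complexes, those built on KAT6A, KAT6B and KAT7. In liver, p300, CBP and the p160 coactivators serve nuclear receptors, while HDAC3 works within NCoR corepressor complexes and class IIa deacetylases move between cytoplasm and nucleus.

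Total counts per library were 19840541 to 22041117, and the 35 genes together took 0.0989% to 0.108% of them. All 35 passed the filter on low counts, and 33 had at least 50 counts in every library. Levels are given as CPM, counts scaled to the normalised library size. By raw library totals, 3 counts, the upper limit behind a count of 0, correspond to 0.136 to 0.151 CPM (counting error only). Hepatocyte markers, 8 of 8 with counts in every library, summed to 81911 to 100536 CPM (WT) and 87109 to 105014 CPM (Het). Markers of Kupffer cells (109.8 to 199.8 and 124.0 to 217.0 CPM), sinusoidal endothelium (155 to 201 and 153 to 189.8 CPM) and stellate cells (163 to 233 and 210.3 to 259.96 CPM) overlapped between genotypes, while those of cholangiocytes did not, at 29.5 to 33.4 CPM (WT) and 26.9 to 29.1 CPM (Het). Erythroid markers summed to 177 to 285 (WT) and 105 to 218 CPM (Het), and those of T and NK cells, B cells and neutrophils stayed under 3 CPM in every liver, with Ly6g at 0. Of 5 markers of pancreas acinar cells, 4 were at 0 (Cpa1, Prss2, Pnlip and Amy2a1). The other, Cela1, had counts in every liver, at 38.2 to 56.9 CPM (WT) and 45.3 to 60.5 CPM (Het). The part of other cell types in the values below was not tested. In bulk liver, fewer cells of a type and less RNA per cell cannot be told apart. A score of 20 acute-phase genes (mean log2 CPM relative to the mean of 6 livers) spread widely within genotypes, at 0.80, 1.73 and -0.97 in WT and 0.55, -0.87 and -1.23 in Het replicates 1 to 3. Of these 20 genes 19 had a log2 fold change below 0 (median -0.54) and 0 were called, and their part in the results was not tested. Ing5 itself had 182, 228 and 191 counts in WT and 193, 217 and 180 counts in Het livers, with a log2 fold change (Het over WT) of -0.05 (SE 0.11), and did not pass (edgeR quasi-likelihood, Benjamini-Hochberg adjusted p = 0.9998; exact permutation p = 0.8, where 0.1 is the smallest possible).

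None of the writers, erasers and readers was called different between Het and WT livers. With edgeR's quasi-likelihood test and Benjamini-Hochberg adjustment over all 12631 genes tested, 0 of 35 passed an adjusted p of 0.05 (each adjusted p = 0.9998), and 0% of all genes did. Over all genes, DESeq2 called 10 and limma-voom 0, and each called 0 of the 35. Only Hdac8 had an unadjusted p under 0.05 (1 of 35, or 2.86%, beside 547 genes, or 4.33%, overall). Log2 fold changes were above 0 for 24 and below 0 for 11 of the genes, with a median of 0.06, while over all genes 50.3% lay above 0 and the median was 0.00088. For 31 of the 35 genes the 95% interval of the difference lay within a 1.5-fold change either way, and for 34 within 2-fold, beside 71.1% and 90.0% of all genes. The genes whose intervals reached beyond 1.5-fold were Hdac8, Hdac4, Hdac9 and Sap30, and Hdac9 alone reached beyond 2-fold. Summed over the 35 genes, normalised CPM was 1012, 1025 and 1008 in WT and 1049, 1042 and 1060 in Het livers. The 3 Het sums lay above the 3 WT sums by a few percent, which is given as a description without a test. Summed by group, the genotypes overlapped for acetyltransferases and coactivators, zinc-dependent deacetylases, sirtuins, Sin3 subunits and BET proteins alike. Acetyltransferases and coactivators, for instance, summed to 345 to 395 CPM (WT) and 385 to 401 CPM (Het). Genes with high counts weigh most in such sums.

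**Figure D1:**
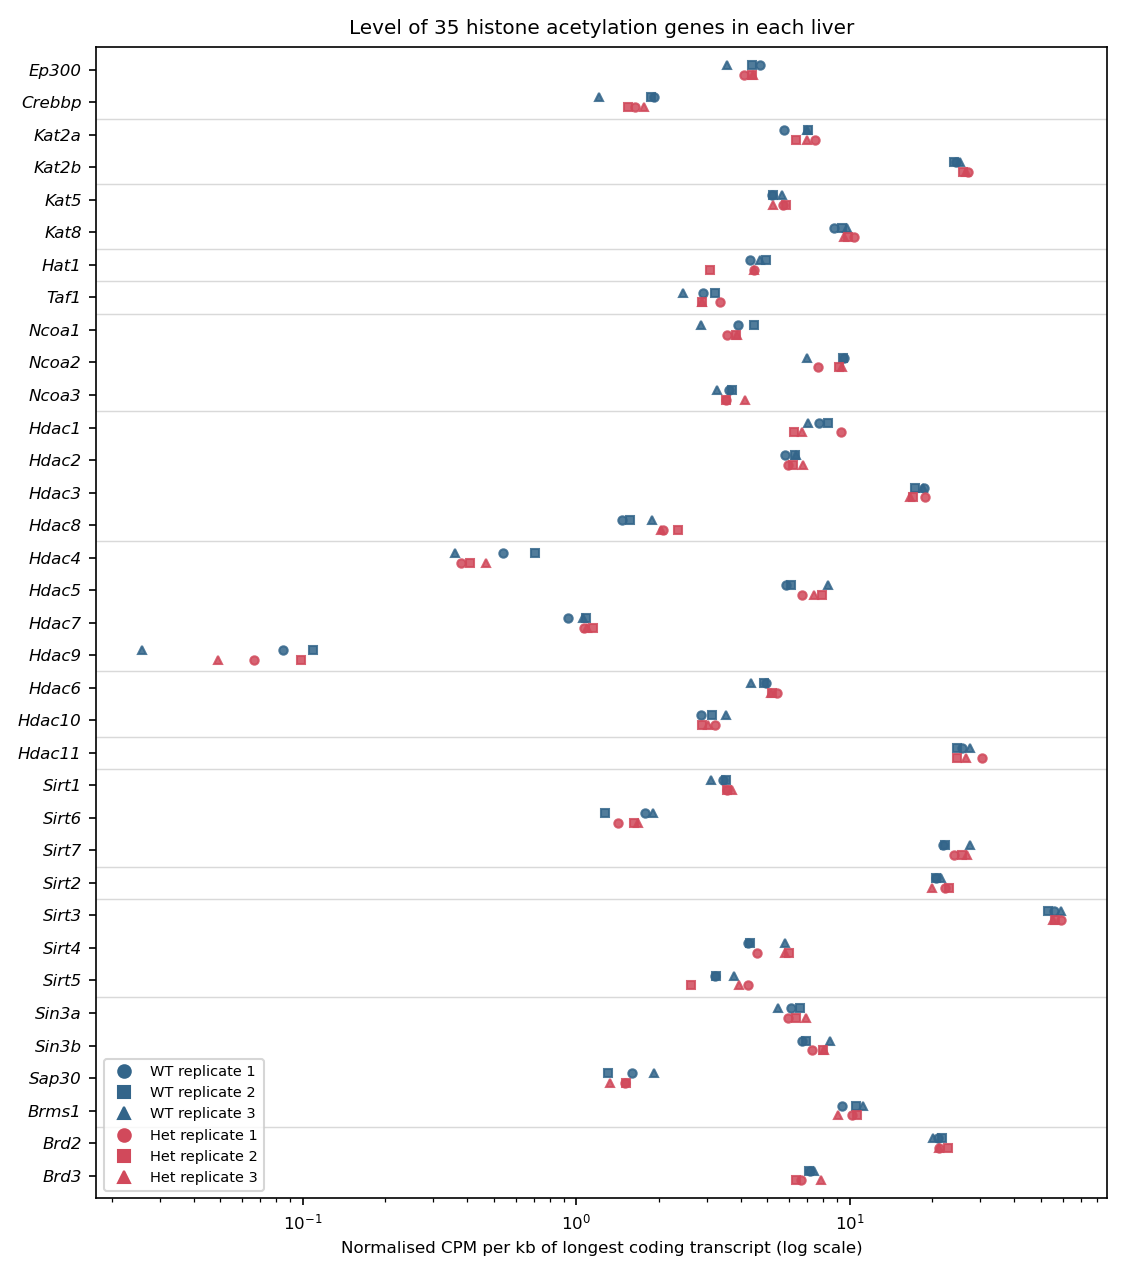
Level of each of the 35 genes in each liver, as normalised CPM per kb of the longest coding transcript (log axis), grouped by role from acetyltransferases (top) to BET proteins (bottom). Blue points are WT and red points Het livers, with a marker shape for each replicate number. Sirt3 had the highest and Hdac9 the lowest level, and for 31 of 35 genes the points of both genotypes overlap.

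**Figure D2:**
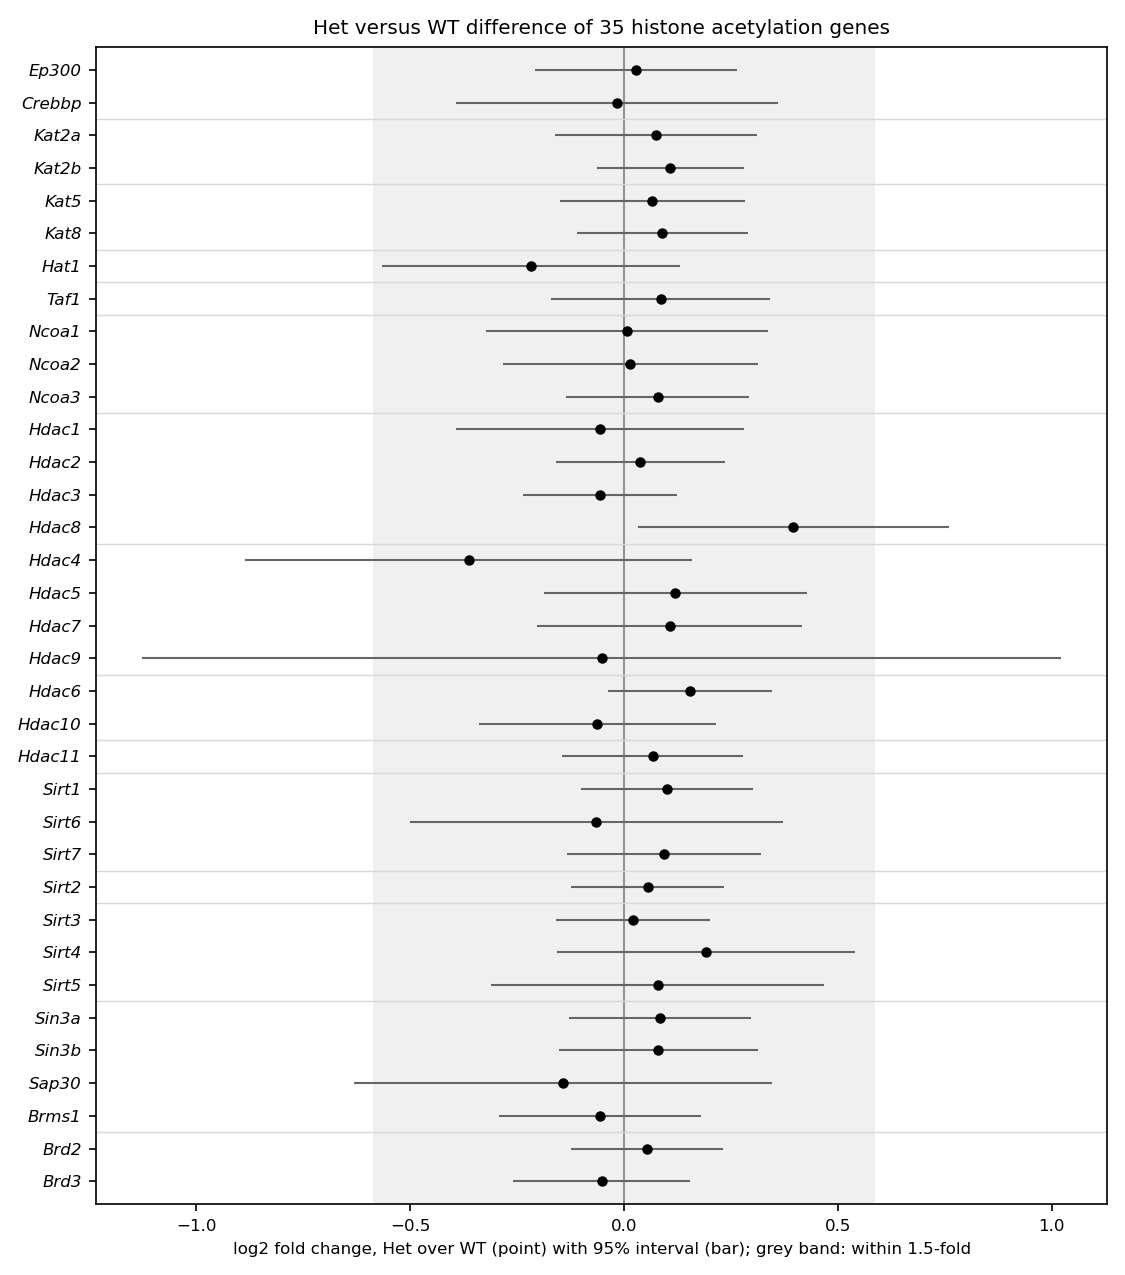
Log2 fold change of Het over WT livers for the 35 genes (points) with 95% intervals (bars) from the edgeR quasi-likelihood fit on 3 against 3 livers. The grey band marks a change within 1.5-fold, and the bars of Hdac8, Hdac4, Hdac9 and Sap30 leave it.

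Het and WT values did not overlap for 4 of the 35 genes (11.4%), Hdac8, Hdac6, Kat2b and Sirt1, all with Het above WT. Over all genes, 8.99% did not overlap in either direction with Het above WT in 4.72% and below in 4.28%. The 250 bases before the annotated start of these 4 genes, and of Hdac4, which had the lowest log2 fold change, are shown to let a reader compare their base composition. Capitals mark matches on either strand to the TATA box (TATAAA), the CCAAT box (CCAAT), the GC box (GGGCGG), the E-box (CACGTG), the ETS motif (CCGGAAG) and the NRF1 motif. Sequences are from RefSeq (GRCm38.p6, the C57BL/6J reference, while the counts were made on mm9 and the mice are FVB).
Hdac8, chrX:102505159-102505408, minus strand: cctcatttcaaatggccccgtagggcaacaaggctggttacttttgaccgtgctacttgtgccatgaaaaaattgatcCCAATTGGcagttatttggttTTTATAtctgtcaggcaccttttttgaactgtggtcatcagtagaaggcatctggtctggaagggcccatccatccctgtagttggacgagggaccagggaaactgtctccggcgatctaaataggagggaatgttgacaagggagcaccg
Hdac6, chrX:7947890-7948139, minus strand: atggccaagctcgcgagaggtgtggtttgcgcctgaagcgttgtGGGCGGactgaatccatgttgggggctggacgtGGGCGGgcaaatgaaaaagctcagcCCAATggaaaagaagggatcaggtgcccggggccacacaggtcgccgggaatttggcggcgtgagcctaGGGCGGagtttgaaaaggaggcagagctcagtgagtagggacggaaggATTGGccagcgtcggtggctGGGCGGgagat
Sirt1, chr10:63339036-63339285, minus strand: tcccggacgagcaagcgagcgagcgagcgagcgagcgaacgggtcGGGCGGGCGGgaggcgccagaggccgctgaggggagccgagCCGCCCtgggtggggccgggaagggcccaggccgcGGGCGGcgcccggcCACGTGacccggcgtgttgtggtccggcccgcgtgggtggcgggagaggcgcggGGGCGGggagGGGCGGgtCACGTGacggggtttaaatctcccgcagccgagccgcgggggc
Kat2b, first of 2 starts, chr17:53566721-53566970, plus strand: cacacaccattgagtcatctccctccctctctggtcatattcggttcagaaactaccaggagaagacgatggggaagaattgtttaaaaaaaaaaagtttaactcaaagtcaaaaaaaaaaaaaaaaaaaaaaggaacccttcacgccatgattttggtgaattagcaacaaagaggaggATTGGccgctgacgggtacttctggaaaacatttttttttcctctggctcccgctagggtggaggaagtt
Hdac4, chr1:92180342-92180591, minus strand: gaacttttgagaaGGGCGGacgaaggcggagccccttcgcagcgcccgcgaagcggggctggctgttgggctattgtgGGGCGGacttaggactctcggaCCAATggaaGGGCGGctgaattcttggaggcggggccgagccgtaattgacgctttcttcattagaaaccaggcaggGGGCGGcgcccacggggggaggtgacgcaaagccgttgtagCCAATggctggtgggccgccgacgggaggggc
The Hdac8 window holds a match to the TATA box read on the strand opposite the gene and overlapping CCAAT matches on both strands, with no GC box and a CpG observed/expected ratio of 0.415. Sirt1 has a ratio of 1.07, several GC boxes (some overlapping) and E-box matches. Hdac6 and Hdac4 hold CCAAT and GC boxes, and the Kat2b window a CCAAT box alone. RefSeq windows were given for 29 of the 35 genes, 41 windows in all because some genes have several starts. Of these 41, 27 (65.9%) had over 50% GC and a CpG ratio over 0.6, against 30.8% of 32851 windows of all genes. The GC box was in 26 windows (63.4%, against 32.7% of all), the CCAAT box in 16 (39.0%, against 33.8%), the ETS motif in 5 (12.2%, against 6.91%), the E-box in 3 (7.32%, against 6.02%), the TATA box in 3 (7.32%, against 12.4%) and the NRF1 motif in 2 (4.88%, against 0.782%). These matches describe the letters of the windows only.

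Hdac8, an X-linked class I deacetylase best known for deacetylating the cohesin subunit SMC3, had the largest log2 fold change of the set. Its normalised levels were 2.84, 3.04 and 3.65 CPM (WT) and 4.02, 4.55 and 3.95 CPM (Het). Every Het liver lay above every WT liver, the nearest being WT replicate 3 and Het replicate 3. Het over WT this is a log2 difference of 0.40 (SE 0.16, 95% interval 0.03 to 0.76), or 1.32-fold (unadjusted p = 0.0357), and it did not pass (edgeR quasi-likelihood, Benjamini-Hochberg adjusted p = 0.9998). These levels rest on 59 to 99 counts per library. With DESeq2 the unadjusted p was 0.0921, and adding the acute-phase score to the model gave 0.31 on the log2 scale (unadjusted p = 0.118).

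Among the writers, 9 of 11 had log2 fold changes above 0 and the 95% interval of each lay within 1.5-fold. Kat2b (PCAF) is, like its paralogue Kat2a (GCN5), a catalytic subunit of SAGA-type complexes. Kat2b had the highest level of the 11 per kb of transcript, at 25.5 CPM per kb over the 6 livers. Its normalised levels were 113, 112 and 117 CPM (WT) and 126, 121 and 124 CPM (Het). The genotypes did not overlap, but the distance was small, with a log2 fold change of 0.11 (SE 0.08, 95% interval -0.06 to 0.28). Kat2a had 20.1 ± 2.22 CPM (WT) and 21.2 ± 1.65 CPM (Het) (SD, n = 3) and 6.77 CPM per kb.

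The general coactivators p300 and CBP, which acetylate histone H3 lysines at enhancers, were not called different between the genotypes. Ep300 had 45.1, 42.0 and 34.1 CPM (WT) and 39.2, 42.0 and 42.4 CPM (Het). Crebbp had 20.8, 20.3 and 13.1 CPM (WT) and 17.7, 16.8 and 19.1 CPM (Het). For both genes WT replicate 3 was the lowest of the 6 livers and WT replicate 1 the highest, so the Het values lay inside the WT range. The log2 fold changes were 0.03 (95% interval -0.21 to 0.26) for Ep300 and -0.02 (-0.39 to 0.36) for Crebbp, the latter with a sign that depended on the library left out (-0.20 without WT replicate 3 and 0.091 without WT replicate 1). Without WT replicate 3, Ep300 had a log2 fold change of -0.079.

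The p160 coactivators bind nuclear receptors and bring p300 and CBP to their target genes. Ncoa2, with the highest level of the 3 per kb of transcript (8.69 CPM per kb), had 77.9, 77.2 and 56.8 CPM (WT) and 62.8, 74.7 and 76.7 CPM (Het). Ncoa1 had 28.6, 32.7 and 20.9 CPM (WT) and 26.1, 28.2 and 28.3 CPM (Het). Its log2 fold change of 0.01 (95% interval -0.32 to 0.34) was the closest to 0 of the whole set. Ncoa3 had 26.6 ± 1.69 and 28.1 ± 2.75 CPM. In all 3 coactivators WT replicate 3 was again the lowest liver, and without it the log2 fold changes were -0.15 for Ncoa1, -0.12 for Ncoa2 and 0.028 for Ncoa3.

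The MYST enzymes Kat5 (TIP60, of the NuA4 complex) and Kat8 (MOF, which acetylates H4 lysine 16) varied little between livers. Kat8 had 13.8, 14.8 and 15.4 CPM (WT) and 16.3, 15.5 and 15.0 CPM (Het), and Kat5 lay between 11.2 and 12.6 CPM in all 6 livers. The exons of Kat5 overlap those of Rnaseh2c over 12.1% of their length, and those of Kat8 overlap Prss8 over 4.22%, in each case on the opposite strand, and since the counting strand is not given some reads could belong to the neighbour. Hat1, the type B enzyme that acetylates newly made histone H4, had 8.18, 9.39 and 8.89 CPM (WT) and 8.46, 5.84 and 8.49 CPM (Het). A low Het replicate 2 set its log2 fold change of -0.22 (SE 0.16), which was -0.058 without that liver. Taf1, the largest subunit of TFIID and X-linked as is Hdac8, had 23.0 ± 3.12 and 24.5 ± 2.24 CPM, and its genotypes overlap.

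Of the 11 zinc-dependent deacetylases, 6 had log2 fold changes above 0 and 5 below. Among class I enzymes, Hdac3, the catalytic partner of NCoR, had the highest level per kb of transcript (17.8 CPM per kb). It had 37.9, 35.2 and 37.7 CPM (WT) and 38.1, 34.6 and 33.7 CPM (Het), which overlap. Hdac1 and Hdac2, the paired deacetylases of the Sin3, NuRD and CoREST complexes, differed in their spread. Hdac2 stayed at 19.9 ± 1.02 CPM (WT) and 20.5 ± 1.39 CPM (Het). Hdac1 had 15.7, 17.0 and 14.4 CPM (WT) but 19.0, 12.7 and 13.7 CPM (Het), so that Het livers held both the highest and the lowest value. Without Het replicate 1 its log2 fold change was -0.25, against -0.06 with all 6 livers. In that fit 0 of the 35 genes had an unadjusted p under 0.05, beside 7.33% of all genes. Values of Hdac1 are uncertain, because 31.7% of the 50-base stretches of its transcripts also occur in Gm10093, which had 367 counts over the 6 libraries.

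The class IIa deacetylases, signal-responsive corepressors that carry little catalytic activity of their own, include Hdac9 and Hdac4, whose WT livers spread most of the 35 genes (58.2% and 32.1% of the mean). Hdac4 is on chromosome 1, as are Ing5 and Ncoa2, and Ncoa2 had a log2 fold change of 0.015. Hdac4 had 4.38, 5.72 and 2.93 CPM (WT) and 3.06, 3.31 and 3.80 CPM (Het). The Het livers lay inside the WT range, above WT replicate 3 and below the other WT livers. Hdac4 had a log2 fold change of -0.36 (SE 0.23, 95% interval -0.89 to 0.16), and this value ran from -0.58 without WT replicate 3 (unadjusted p = 0.0119) to -0.11 without WT replicate 2. Adding the acute-phase score to the model gave -0.11 (unadjusted p = 0.653). The exons of Hdac4 overlap those of Gm26720 on the opposite strand over 22.4% of their length, a gene not among the IDs of the files. Hdac5, the most abundant class IIa gene per kb of transcript (7.03 CPM per kb), was highest in WT replicate 3, with 28.3, 29.5 and 40.3 CPM (WT) and 32.4, 38.3 and 35.9 CPM (Het). Its log2 fold change was 0.12 (SE 0.14), 0.30 without WT replicate 3 (unadjusted p = 0.00883) and -0.034 when the acute-phase score was added to the model. The level of Hdac9 was the lowest of the 35 per kb of transcript, with 14, 19 and 4 counts in WT and 11, 17 and 8 counts in Het livers. Its 95% interval ran from -1.13 to 1.02 on the log2 scale, which does not leave out a 2-fold difference either way. Hdac7, an endothelial and lymphoid class IIa gene, had 4.33 ± 0.339 and 4.67 ± 0.193 CPM.

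Hdac6, a mainly cytoplasmic deacetylase of tubulin encoded on the X chromosome, had 20.5, 20.2 and 18.0 CPM (WT) and 22.4, 21.5 and 21.4 CPM (Het). Het livers lay above WT livers, with a log2 fold change of 0.15 (SE 0.09, unadjusted p = 0.103). Without WT replicate 3 it was 0.097 (unadjusted p = 0.251), and when the acute-phase score was added to the model it was 0.22 (unadjusted p = 0.0417). Hdac10, a polyamine deacetylase, had 6.88 to 8.53 CPM in WT livers and 6.95 to 7.74 CPM (Het), so the genotypes overlap. Hdac11, the class IV enzyme with defatty-acylase activity, had 68.3, 65.6 and 72.9 CPM (WT) and 80.5, 65.7 and 70.3 CPM (Het). At 26.6 CPM per kb it was the zinc-dependent deacetylase with the highest level per kb of transcript, and this order held with the length of all annotated exons (18.3 CPM per kb). Its exons overlap those of Gm44002, which is not among the IDs of the files, over 15.4% of their length on the opposite strand, so some of its reads are uncertain.

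The sirtuins use NAD and so tie deacylation to the metabolic state of the liver. Of the 7 genes 6 had log2 fold changes above 0, and the 95% interval of each lay within 1.5-fold. Sirt1, a nuclear sirtuin that acts on regulators of fasting metabolism, had 15.3, 15.6 and 13.7 CPM (WT) and 15.8, 15.7 and 16.4 CPM (Het). The nearest Het and WT values were hardly apart, and the log2 fold change was 0.10 (SE 0.09), or 0.046 without WT replicate 3. Sirt7, a nucleolar sirtuin with the highest level of the 3 nuclear ones per kb of transcript, had 38.0, 38.7 and 47.5 CPM (WT) and 41.4, 44.5 and 46.4 CPM (Het). Sirt6, which acts on histone H3 at lysine 9, had 3.12 ± 0.633 and 2.98 ± 0.263 CPM, and Sirt2, a mainly cytoplasmic sirtuin, 44.3 ± 1.05 and 46.0 ± 3.23 CPM.

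Sirt3, the main deacetylase of mitochondrial proteins, had the highest level of the 35 per kb of the longest coding transcript, at 56.4 CPM per kb. Its normalised levels were 89.4, 85.2 and 95.2 CPM (WT) and 94.9, 90.1 and 88.6 CPM (Het), with a fold of 1.01 (95% interval 0.895 to 1.15). The place of Sirt3 depends on the length used: per kb of all annotated exons it had 15.2 CPM per kb, and Kat2b led with 24.4 CPM per kb. Its exons overlap those of Ric8a by 418 bases and those of Psmd13 by 342 bases, both on the opposite strand. Sirt4, another mitochondrial sirtuin, had 7.60, 7.76 and 10.4 CPM (WT) and 8.22, 10.7 and 10.4 CPM (Het). WT replicate 3 lay with Het replicates 2 and 3, and the log2 fold change of 0.19 (SE 0.16) was 0.35 without WT replicate 3 (unadjusted p = 0.0372) and 0.0041 when the acute-phase score was added to the model. Sirt5, a desuccinylase, had 8.26 ± 0.765 and 8.73 ± 2.06 CPM, and 14.2% of its 50-base stretches occur in other transcripts.

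Sin3a and Sin3b are the alternative scaffolds of the Sin3 corepressor, and Sap30 and Brms1 are subunits that bind them. Sin3a had 31.8, 34.1 and 28.4 CPM (WT) and 31.0, 33.2 and 35.9 CPM (Het), and Sin3b 27.5, 28.5 and 34.8 CPM (WT) and 30.0, 33.0 and 33.0 CPM (Het). WT replicate 3 was the lowest liver for Sin3a and the highest for Sin3b. Brms1, the subunit with the highest level per kb of transcript (10.2 CPM per kb), had 13.0, 14.6 and 15.6 CPM (WT) and 14.1, 14.8 and 12.6 CPM (Het). Its counts are uncertain, as a second annotated gene, AC124502.3 (not among the IDs of the files), covers 79.0% of its exons on the same strand. Sap30, with 32 to 44 counts per library, had 1.89 ± 0.360 and 1.71 ± 0.128 CPM.

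The BET proteins read acetylated histone tails through paired bromodomains. Brd2 had 98.3, 101 and 93.7 CPM (WT) and 99.0, 106 and 98.9 CPM (Het), and 21.4 CPM per kb. Brd3 had 38.8, 38.6 and 40.0 CPM (WT) and 36.0, 34.5 and 42.7 CPM (Het), a spread of 1.99% of the mean in WT and of 11.6% in Het livers. The log2 fold changes were 0.05 (95% interval -0.12 to 0.23) for Brd2 and -0.05 (-0.26 to 0.15) for Brd3. The exons of Brd2 overlap H2-DMa over 4.60% of their length on the opposite strand.

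WT replicate 3 stood apart in a way that followed transcript length. All 8 of the genes with a longest coding transcript of 6 kb or more (Crebbp, Ep300, Ncoa2, Hdac4, Taf1, Hdac9, Ncoa3 and Ncoa1) had their lowest value in that liver, as did 4 of the 27 shorter ones (Hdac6, Sirt1, Sin3a and Brd2). That makes 12 of 35 (34.3%), where WT replicate 3 was the lowest liver for 21.6% of all genes. Among the other livers, WT replicate 1 was lowest for 11 of 35 (31.4%, beside 15.9% of all genes) and Het replicate 1 for 0 (beside 13.7%). Among all genes, WT replicate 3 was lowest for 44.1% of 1634 genes of 6 kb or more and for 18.2% of 10702 shorter ones. Its log2 deviation from the mean of 6 livers ran from -1.17 (Hdac9) to -0.14 (Ncoa3) in the 8 long genes, with a median of -0.33, beside a median of -0.11 for all long genes. For the 27 shorter genes the median deviation was 0.053. Spearman's rho of this deviation with length across genes, which share the library and are no replicates, was -0.74 over the 35 genes and -0.34 over 12336 genes with a length. The corresponding values over the 35 genes were 0.41 and 0.57 in WT replicates 1 and 2, and -0.30, -0.014 and 0.26 in Het replicates 1 to 3. When the length trend of each library was removed, a step added after the data were seen, 0 of the 35 genes were called and the log2 fold changes were 0.0045 for Crebbp, 0.039 for Ep300 and -0.35 for Hdac4. The same liver had an acute-phase score of -0.97 against 0.80 and 1.73 in the other WT livers, and the part of either in these values was not tested.

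**Figure D3:**
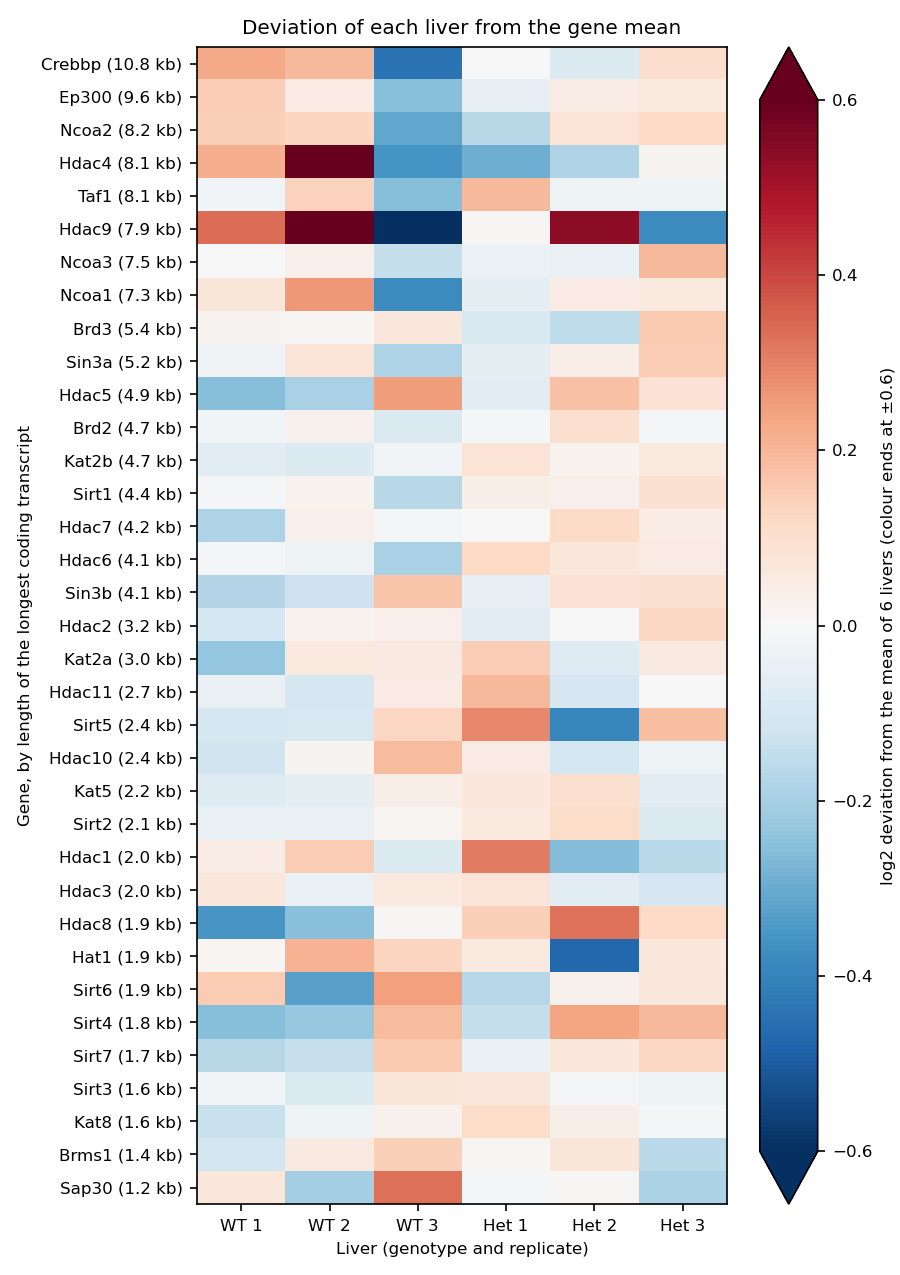
Log2 deviation of each liver (columns) from the mean of the 6 livers for the 35 genes (rows), ordered from the longest to the shortest coding transcript. Red is above and blue below the gene's mean, and the colour ends at ±0.6. The 8 longest genes are blue in WT replicate 3, while 8 of the 27 shorter genes have their highest value there.

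**Figure D4:**
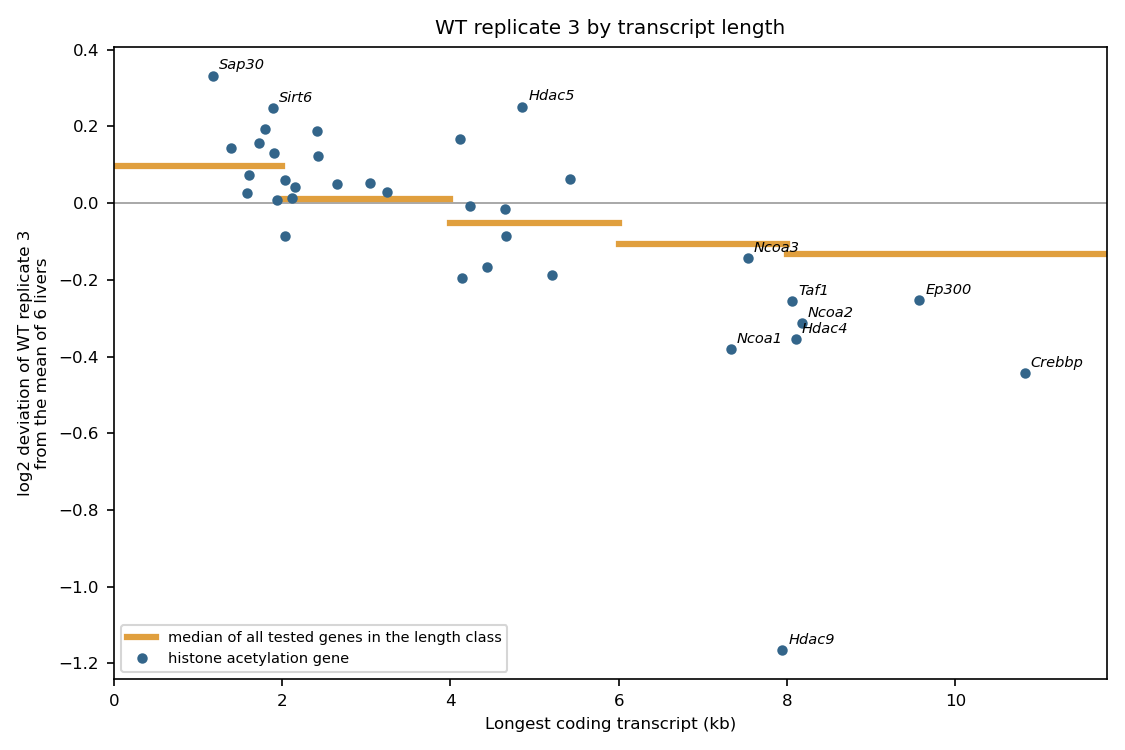
Log2 deviation of WT replicate 3 from the mean of 6 livers (vertical axis) against the length of the longest coding transcript in kb (horizontal axis). Blue points are the 35 genes and orange bars the median of all tested genes in the length class. All 8 genes of 6 kb or more lie below 0, with Hdac9 at -1.17.

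Without WT replicate 3 the count of genes with an unadjusted p under 0.05 went from 1 to 6 of 35 (17.1%), while over all genes it went from 4.33% to 10.8%. The 6 were Hdac5, Hdac4, Hdac8, Sirt7, Sirt4 and Sin3b, and 0 of them passed (edgeR quasi-likelihood, smallest Benjamini-Hochberg adjusted p = 0.288). In Hdac5, Hdac4, Sirt7, Sirt4 and Sin3b the value of WT replicate 3 lay closer to Het replicates 2 and 3 than to the other WT livers. Leaving out WT replicate 3 favours genes in which that liver lay near Het livers, so its place there is no separate result. These 3 livers had acute-phase scores below 0, and the part of that score was not tested. The fit that brought up Hdac5, Hdac4, Sirt7, Sirt4 and Sin3b favours a pattern over livers that this score shares. Smaller log2 fold changes of these genes with the score in the model are therefore no separate result. When that score was added to the model, the log2 fold changes of Hdac5, Hdac4, Sirt7, Sirt4 and Sin3b were -0.034, -0.11, -0.015, 0.0041 and -0.027. That of Hdac8 was 0.31 with the score added. In that fit Taf1 (0.24, unadjusted p = 0.0228) and Hdac6 had an unadjusted p under 0.05, or 2 of 35 (5.71%, beside 4.62% of all genes), and 0 passed.

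The counts of 7 pairs of paralogues were compared as ratios within the same liver, in which library size cancels. A length trend that differs between libraries does not cancel where the paralogues differ in length, and it was not removed from these ratios. The ratio of Ep300 to Crebbp counts was 2.17, 2.07 and 2.61 in WT and 2.21, 2.50 and 2.22 in Het livers. Sin3a to Sin3b was 1.16, 1.20 and 0.814 in WT and 1.03, 1.01 and 1.09 in Het livers, so Sin3b had the larger count in WT replicate 3 alone. Hdac4 to Hdac5 was 0.155, 0.194 and 0.0733 in WT and 0.0952, 0.0871 and 0.106 in Het livers. This pair had the largest difference, -0.44 on the log2 scale (exact permutation p = 0.4), and WT replicate 3 lay apart from the other WT livers. Leaving out WT replicate 3 gave a difference of -0.86, and leaving out WT replicate 2 gave -0.15. Hdac1 to Hdac2 was 0.839, 0.832 and 0.699 in WT and 0.985, 0.631 and 0.621 in Het livers, with Het replicate 1 apart from the other Het livers. Differences on the log2 scale were -0.03 for Kat2a to Kat2b, 0.01 for Ncoa1 to Ncoa2 and 0.11 for Brd2 to Brd3. The genotypes overlapped in each of the 7 pairs, and no pair passed (exact two-sided permutation p = 0.4 to 1, Benjamini-Hochberg adjusted 0.933 to 1, where 0.1 is the smallest p possible for 3 against 3).

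**Figure D5:**
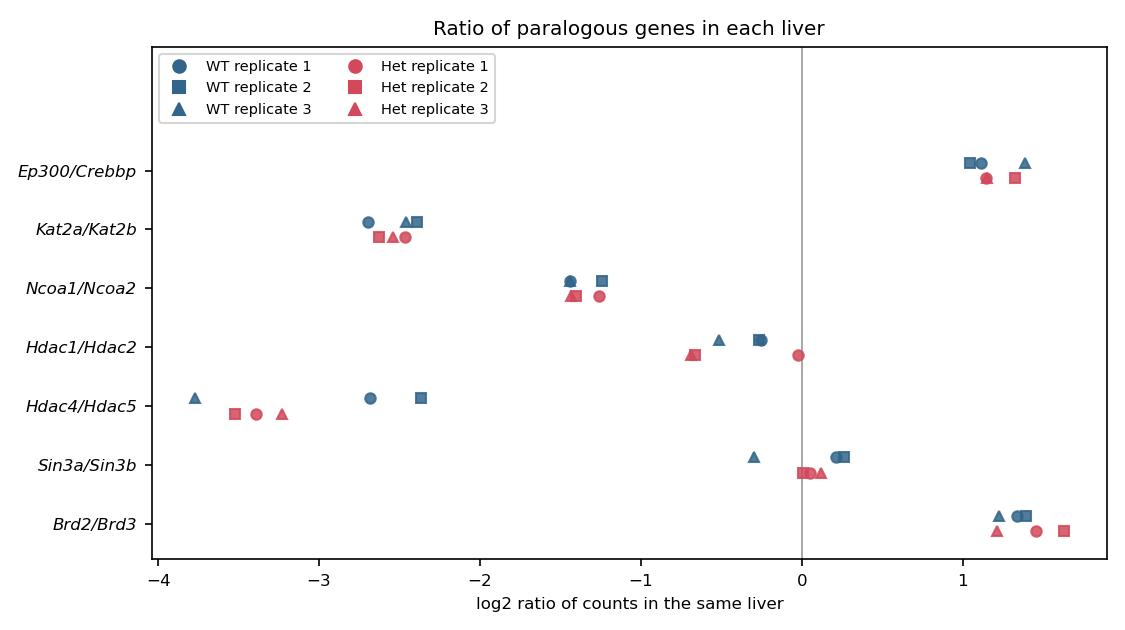
Log2 ratio of the counts of 7 pairs of paralogues in each liver, with WT in blue and Het in red and a marker shape for each replicate number. WT replicate 3 is the lowest point for Hdac4/Hdac5 and Sin3a/Sin3b and the highest for Ep300/Crebbp.

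The partner subunits and other readers around these enzymes were described by lists of genes. Of 91 genes, 89 passed the filter on low counts, and 0 were called (0% of all genes were). Log2 fold changes were above 0 for 42 and below 0 for 47 of them, with a median of -0.0050. The 95% interval lay within 1.5-fold for 84 (94.4%). Only Rbbp4, the histone-binding chaperone of the NuRD and Sin3 complexes, had an unadjusted p under 0.05 (0.0301; 1 of 89, or 1.12%, a smaller share than the 4.33% of all genes), with 113 ± 8.80 CPM (WT) and 132 ± 4.32 CPM (Het) and a log2 fold change of 0.22 (SE 0.09). Of 19 SAGA and ATAC subunits 10 lay above 0, and Yeats2, a reader of the ATAC complex, had the smallest p (15.0 ± 0.275 and 17.0 ± 0.365 CPM, unadjusted p = 0.0512). Of 14 NuA4 subunits 8 lay above 0, with the smallest p for Mbtd1 (26.3 ± 1.82 and 23.8 ± 0.731 CPM), and of 9 MSL and NSL subunits 4, with the smallest p for Msl1 (44.2 ± 2.79 and 48.5 ± 1.80 CPM). Of 11 NuRD subunits 3 lay above 0. Of 10 tested CoREST and NCoR subunits 8 did. Of 8 further Sin3 subunits 3 lay above 0, with the smallest p for Arid4a (20.7 ± 0.970 and 22.2 ± 1.73 CPM). Of 15 other readers 6 did, with the smallest p for Trim24, a bromodomain coregulator of nuclear receptors (23.6 ± 2.08 and 19.1 ± 5.25 CPM). The 3 tested genes of acetyl-CoA supply all lay below 0, and Acly, which makes the cytosolic and nuclear acetyl-CoA that acetyltransferases use, had 143 ± 8.95 and 126 ± 21.4 CPM.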

How the data were processed

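The submitters' processing notes name mm9 as the build and, with no role, HTSeq 0.6.1, TopHat2 2.0.11 and DESeq. For counting strand and annotation release, the sources used here give nothing. The values the authors deposited are raw counts per Ensembl gene ID, not normalised, 1 file per liver. Symbols were matched by ID for 32919 of 37991 rows, and transcript lengths and exon overlaps come from GENCODE M21 (GRCm38), used for lengths and neighbours only. Per-kb levels divide by the longest coding transcript.

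Counts were filtered with filterByExpr by genotype (12631 genes), normalised with TMM (factors 0.977 to 1.02) and fitted with edgeR 4.0.16 in R 4.3.3 (robust quasi-likelihood, genotype as sole factor). P-values were adjusted by Benjamini-Hochberg over all genes (threshold 0.05). The SE is the log2 fold change over the square root of F. Its median was 0.105 for the 35 genes and 0.125 over all genes. Deviations used log2(CPM + 0.05) and pair ratios counts + 0.5. Libraries were not copies of each other (chi-square per degree of freedom 10.2 to 79.9). Correlations of the deviations of same-numbered livers were -0.027, -0.076 and 0.22, beside -0.21 to 0.25 for livers of unlike number. DESeq2 1.42.0, limma-voom (limma 3.58.1), other scalings and filters, the replicate block, an acute-phase covariate and each library left out were the alternatives. The steps were also run on simulated counts, drawn independently for each gene and without a length trend, and the outcome is not reported here.

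The genes and lists were chosen with earlier results of these data known. All 35 genes are named. Values in every library are given for genes with an unadjusted p under 0.05 or without overlap, those with extreme fold changes or spread, and the most abundant of each role. From each partner list the gene with the smallest p is named, except for 1 list, where it is not reported here. Hat1, Crebbp, Ncoa1, Hdac1, Hdac11, Sirt4, Sin3a, Sin3b and Brd3 were given in every library after their values were seen.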

Additional observations from a re-analysis of the deposited data

How the results depend on the processing

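Under each alternative 0 of the genes passed an adjusted p of 0.05, with all 35 tested except under the filter of CPM above 1 in 3 libraries, which left out Hdac9. The number with an interval within 1.5-fold, 31 with all livers, was 29 to 31. The count of genes with an unadjusted p under 0.05, 1 with all livers, was 0 with the replicate block or DESeq2, 2 with the acute-phase covariate and 0 to 6 with a library left out (6 without WT replicate 3). Over all genes 0 passed, while 1 did without a filter on low counts, 10 with DESeq2 and 0 to 17 with a library left out (10 without Het replicate 1 and 17 without WT replicate 3). Whether the replicate numbers pair the livers is not given, and correlations among 3 livers per genotype cannot settle it. Not every liver correlated best with its own number, while WT replicate 3 and Het replicate 3 did (0.22). The block gave 0 called genes among the 35.

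The sign of small log2 fold changes turned in 12 of 486 values outside the fits with a library left out, and the cause was not tested. With the acute-phase covariate these were Crebbp (0.172), Hdac1 (0.101), Hdac2 (-0.00216), Hdac5 (-0.0337), Hdac9 (0.505), Sirt7 (-0.0151), Sirt3 (-0.000443) and Sin3b (-0.0273). Crebbp also turned with the replicate block (0.00553), limma-voom (0.00753) and the length trend removed (0.00454), and Hdac9 with limma-voom (0.1).

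With a library left out, Ing5 ranged from -0.116 to 0.00771. Among the writers, Ep300 ranged from -0.079 to 0.109, Crebbp from -0.202 to 0.0911, Kat2a from -0.0181 to 0.134, Taf1 from -0.0123 to 0.182, Ncoa1 from -0.153 to 0.154, Ncoa2 from -0.119 to 0.0994 and Ncoa3 from -0.00471 to 0.12. Among the deacetylases, Hdac1 ranged from -0.253 to 0.0538, Hdac2 from -0.0158 to 0.0805, Hdac9 from -0.433 to 0.349, Hdac10 from -0.138 to 0.0199 and Hdac11 from -0.0187 to 0.13. Sirt6 ranged from -0.226 to 0.047, Sirt3 from -0.0166 to 0.0635, Sirt5 from -0.0564 to 0.261, Sap30 from -0.273 to 0.00123, Brms1 from -0.127 to 0.00766 and Brd3 from -0.15 to 0.00879. Ratio differences ranged from -0.0449 to 0.124 for Ep300 to Crebbp, -0.119 to 0.0329 for Kat2a to Kat2b, -0.0447 to 0.0742 for Ncoa1 to Ncoa2, -0.329 to 0.00322 for Hdac1 to Hdac2, -0.177 to 0.101 for Sin3a to Sin3b, -0.857 to -0.154 for Hdac4 to Hdac5 and 0.0147 to 0.222 for Brd2 to Brd3.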
